A study of Rattus norvegicus with 13 samples.

Results

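The kinases that carry the insulin and growth factor signal inside the cell were followed through 7 probe sets in the brains of rats aged 15 months. The array reads each transcript with several short probes, together called a probe set, which yield 1 value. Every probe set that the platform annotation gives a single symbol from a list of 8 genes was taken (Pik3ca, Pik3cb, Pik3r1, Akt1, Akt2, Gsk3a, Gsk3b and Mtor). These were 7 of the 29214 probe sets in the table, and 7 of the 14506 genes that have a probe set of their own, with 1 probe set for each member except Pik3ca, which was not analysed here. In the fructose group were male Fischer F344 rats of 15 months whose mothers ate a high fructose diet through gestation and lactation (6 arrays), and in the control group males of the same strain and age whose mothers ate a control diet (7 arrays). All offspring were weaned at day 20 onto chow, so both groups ate the same food from then on. The tissue was brain without cerebellum, and since it was measured whole, fewer cells of a type and less RNA per cell cannot be told apart.

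Phosphoinositide 3-kinase (PI3K) is recruited to activated insulin and growth factor receptors, where it makes a membrane lipid that draws the kinase Akt to the membrane. Akt, once phosphorylated there, restrains the GSK3 kinases by phosphorylation and relieves the brake that the TSC proteins hold on mTOR, the kinase that sets protein synthesis and autophagy by nutrient supply. In neurons the pathway is known for its part in survival, synaptic plasticity and, through GSK3, phosphorylation of the microtubule protein tau. These proteins are regulated largely by phosphorylation, which an array of RNA does not read.

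The members include 2 pairs of paralogs, Akt1 with Akt2 and Gsk3a with Gsk3b. The windows at the annotated gene starts of these 4 genes are shown because the paralogs are compared with each other below. Base composition also differs between these windows. Each runs from 250 bases before to 50 bases after the gene start annotated by RefSeq in build GRCr8, read 5′ to 3′ on the gene's strand, and capitals mark each CpG, a C followed by a G. Which start is used in these brains was not measured, so a window need not hold the promoter in use. The Akt1 window has an ATG near its end, so it may include coding sequence.
Akt1, chr6:137552561-137552860, minus strand: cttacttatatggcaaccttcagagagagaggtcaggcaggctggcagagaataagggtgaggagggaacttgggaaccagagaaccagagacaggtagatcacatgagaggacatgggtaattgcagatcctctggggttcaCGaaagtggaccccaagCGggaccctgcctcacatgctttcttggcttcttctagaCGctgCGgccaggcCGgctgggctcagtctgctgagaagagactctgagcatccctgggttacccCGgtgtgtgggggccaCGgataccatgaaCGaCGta
Akt2, chr1:92021667-92021966, plus strand: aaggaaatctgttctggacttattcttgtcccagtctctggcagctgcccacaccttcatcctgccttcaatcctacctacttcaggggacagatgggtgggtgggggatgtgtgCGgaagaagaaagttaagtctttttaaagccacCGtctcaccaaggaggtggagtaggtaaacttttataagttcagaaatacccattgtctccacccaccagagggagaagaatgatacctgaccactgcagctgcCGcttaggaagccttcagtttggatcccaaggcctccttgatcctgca
Gsk3a, chr1:89953465-89953764, minus strand: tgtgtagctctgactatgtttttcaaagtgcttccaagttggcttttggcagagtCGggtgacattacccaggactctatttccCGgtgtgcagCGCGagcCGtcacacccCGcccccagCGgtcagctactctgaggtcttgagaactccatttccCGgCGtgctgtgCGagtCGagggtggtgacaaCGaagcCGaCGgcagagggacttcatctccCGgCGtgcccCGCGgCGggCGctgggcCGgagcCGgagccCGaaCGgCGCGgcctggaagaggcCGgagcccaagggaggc
Gsk3b, chr11:76153200-76153499, minus strand: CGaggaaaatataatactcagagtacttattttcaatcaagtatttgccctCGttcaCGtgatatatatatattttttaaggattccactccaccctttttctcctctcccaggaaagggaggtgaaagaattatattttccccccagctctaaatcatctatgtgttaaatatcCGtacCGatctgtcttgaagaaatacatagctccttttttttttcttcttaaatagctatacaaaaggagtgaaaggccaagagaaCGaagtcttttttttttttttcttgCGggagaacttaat
The Gsk3a window was 64.0% G or C with 27 CpG, and the Gsk3b window 34.7% with 7 CpG. The Akt1 window was 56.0% G or C with 9 CpG and the Akt2 window 49.7% with 3 CpG, beside a median of 51.7% and 7 CpG over 33469 rat windows of this length. RefSeq windows were found for 6 of the 7 genes, all but Pik3cb, and the window of Pik3r1 was the richest of the 6, at 75.3% and 31 CpG. On either strand, the GC box GGGCGG was present in 3 of these 6 windows (Pik3r1, Gsk3a and Mtor) and in 33.1% of all windows. The E-box CACGTG was present in 1 (Gsk3b) and in 6.42% of all windows. The box CCAAT was present in 2 (Pik3r1 and Mtor) and in 37.5%, and the FOXO motif GTAAACA in 0 and in 3.78%. Overlapping matches of a motif were allowed, and a match is only a run of letters.

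The arrays were close to each other, with medians of 7.99 to 8.07 on the log2 scale and correlations between arrays from 0.985 to 0.998. Control replicates 1 and 2 stood apart by a narrow spread of values, with interquartile ranges of 2.19 and 2.15 against 2.26 to 2.50 elsewhere, so results are given with and without them. Brain markers were present, with mean levels of 10.53 to 13.35 for the 8 neuron markers. The markers of granule and Purkinje cells of the cerebellum, which was removed, had mean levels of 5.64 to 9.62, the highest being Calb1, which other brain regions also use, and the lowest Gabra6. The mean level of the neuron markers spanned 11.80 to 11.94 in fructose arrays and 11.73 to 11.87 in control arrays, and that of the astrocyte markers 10.73 to 10.90 and 10.53 to 11.10. The table has no detection p-values, and levels of different probe sets are not ranked, because probes differ in how strongly they bind.

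Whether levels of these kinases still differed by the mothers' diet was asked at 15 months of age, long after weaning. None of the 7 passed: in limma's moderated test over all 15633 probe sets with a gene, the adjusted p was 0.9998 for each of them. The background share of probe sets past an adjusted p of 0.05 was 0% in either direction, and 2.23% had an unadjusted p under 0.05, with no member among them. The means of 6 of the 7 members were higher in the fructose group, all but Mtor, beside 54.1% of all probe sets. Among the 4358 probe sets with a mean level of 9 to 12, where all members lie, that share was 66.8% and the median difference 0.02 on the log2 scale. The median difference of the members was 0.07 on the log2 scale. Without control replicates 1 and 2, 5 of the 7 were higher, beside 51.4% of all probe sets, with a median of 0.06. No member separated the groups, which 0.0192% of probe sets did with all fructose arrays higher and 0.0192% with all lower. At least 5 of the 6 fructose arrays lay above the control mean for 5 of the 7 members (Pik3cb, Pik3r1, Akt2, Gsk3a and Gsk3b), beside 23.4% of all probe sets. That share was not taken at the level of the members or without control replicates 1 and 2.

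**Figure D1:**
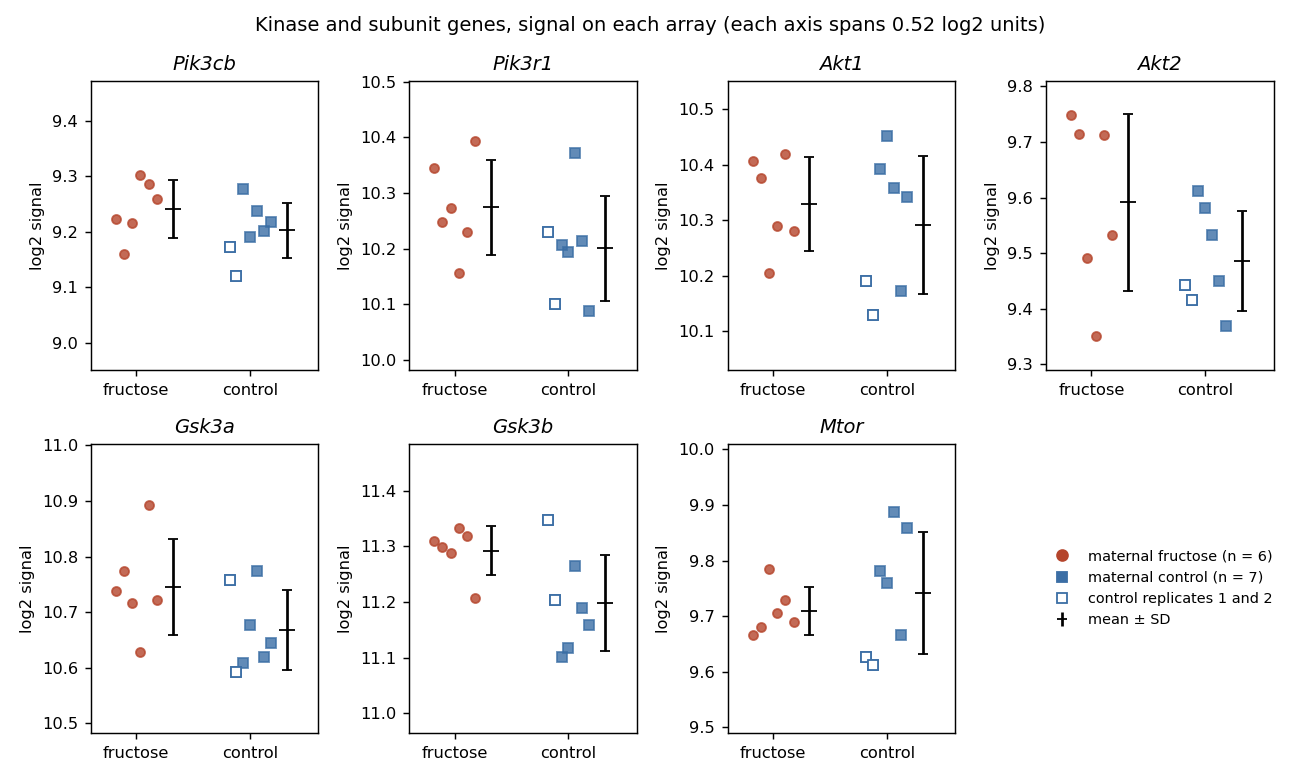
Log2 signal of the 7 genes on each array, maternal fructose at left (circles, 6 arrays) and maternal control at right (squares, 7 arrays), with mean and SD in black; open squares are control replicates 1 and 2. Every axis spans the same width, and the groups overlap for all 7 genes, least for Gsk3b, where 5 of 7 control arrays lie below every fructose array.

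Of the PI3K subunits, Pik3cb encodes the catalytic subunit p110 beta. Its log2 signal was lowest at 9.16, with a median of 9.24 and a highest value of 9.30 in fructose arrays, and at 9.12, 9.20 and 9.28 in control arrays. The groups overlapped almost fully, and the difference was 0.04 ± 0.04 on the log2 scale (SE; 95% interval -0.05 to 0.12; unadjusted p = 0.349 from limma). It was 0.024 without control replicate 2, 0.015 without control replicates 1 and 2, 0.020 after renewed quantile normalization, 0.022 after cyclic loess and 0.016 with arrays weighted by their reliability. Pik3cb was the steadiest member: its SD within groups of 0.051 was below that of all but 2.91% of probe sets. Pik3r1 encodes the regulatory subunit p85 alpha, which holds the catalytic subunit and binds activated receptors. It had a lowest, median and highest log2 signal of 10.16, 10.26 and 10.39 in fructose arrays, against 10.09, 10.21 and 10.37 in control arrays. The difference was 0.07 ± 0.05 on the log2 scale (95% interval -0.04 to 0.19; unadjusted p = 0.180 from limma), and the values were interleaved, with 1 fructose array above every control array.

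Akt1 encodes the most widely expressed Akt, tied to growth and survival, and Akt2 the one most tied to insulin action on glucose uptake in muscle and fat. Akt1 ran from 10.20 through a median of 10.33 to 10.42 in fructose arrays, and from 10.13 through 10.34 to 10.45 in control arrays. Its difference of 0.04 ± 0.06 on the log2 scale (95% interval -0.09 to 0.17) was -0.014 without control replicates 1 and 2, which held 2 of the 3 lowest values, 10.19 and 10.13. It lay between 0.012 and 0.065 with any 1 array left out, lowest without control replicate 2 and highest without control replicate 4, and was 0.012 after renewed quantile normalization. Akt2 ran from 9.35 through a median of 9.62 to 9.75 in fructose arrays, and from 9.37 through 9.45 to 9.61 in control arrays. Fructose replicates 1, 2 and 7, at 9.75, 9.71 and 9.71, lay above every control array, while fructose replicate 4, at 9.35, lay below them all. Fructose replicate 4 was also the highest of the 13 arrays in the mean of the 6 cerebellum markers, at 7.86 beside 7.46 to 7.72 in the others, and of the 6 meninges markers, at 8.91 beside 7.51 to 8.76. The difference of Akt2 was 0.11 ± 0.07 on the log2 scale, or 7.59% (95% interval -2.61% to 18.9%; unadjusted p = 0.138 from limma). Its SD was 0.159 in the fructose group and 0.091 in the control group, the widest spread of the members within the fructose group.

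Gsk3a and Gsk3b encode the alpha and beta forms of glycogen synthase kinase 3, a constitutively active kinase that Akt inhibits and that acts on glycogen synthase, beta-catenin and tau. Gsk3a ran from 10.63 through a median of 10.73 to 10.89 in fructose arrays, and from 10.59 through 10.65 to 10.77 in control arrays. Its difference was 0.08 ± 0.05 on the log2 scale (95% interval -0.03 to 0.18; unadjusted p = 0.131 from limma) and 0.048 without fructose replicate 7, its highest array. Gsk3b was at 11.31, 11.30, 11.29, 11.33, 11.32 and 11.21 in fructose replicates 1, 2, 3, 4, 7 and 8. It was at 11.35, 11.20, 11.10, 11.12, 11.26, 11.19 and 11.16 in control replicates 1, 2, 3, 4, 5, 7 and 8. So 5 of the 6 fructose arrays lay within 0.05 log2 units of each other and all 6 above the control mean, but the highest of all 13 values was that of control replicate 1.

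The mean of Gsk3b was 11.29 ± 0.04 in fructose arrays (SD, n = 6) and 11.20 ± 0.09 in control arrays (SD, n = 7). The difference of 0.09 ± 0.05 on the log2 scale is 6.80% (95% interval -0.12% to 14.2%), with an unadjusted p = 0.0538 from limma, rank 382 of 15633. Without control replicates 1 and 2 it was 0.13 ± 0.04 (95% interval 0.04 to 0.22; unadjusted p = 0.00942 from limma), and the adjusted p = 0.953. With the arrays weighted by their reliability it was 0.13, and after the arrays were quantile normalized again it was 0.06, with an adjusted p of 0.971 and 0.9997 from limma.

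Mtor encodes the catalytic kinase of both mTOR complexes. It ran from 9.67 through a median of 9.70 to 9.78 in fructose arrays, and from 9.61 through 9.76 to 9.89 in control arrays. It was the member with a lower fructose mean, by -0.03 ± 0.05 on the log2 scale (95% interval -0.14 to 0.08; unadjusted p = 0.536 from limma). All 6 fructose arrays lay inside the control range, whose 2 lowest values were those of control replicates 1 and 2. Without these the difference was -0.08 ± 0.05 (95% interval -0.18 to 0.02), with an adjusted p = 0.953 from limma. Without control replicate 5, the highest array, it was -0.008, and without control replicate 8 it was -0.013.

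**Figure D2:**
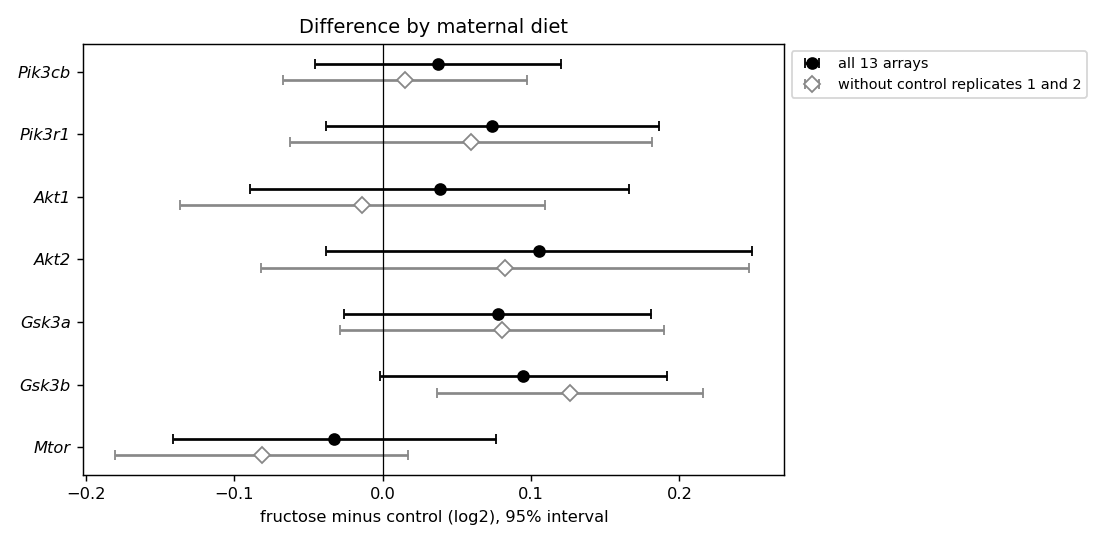
Difference between the maternal diets in log2 signal for each gene (fructose minus control, bars are 95% intervals from limma), from all 13 arrays (black circles) and without control replicates 1 and 2 (open diamonds). All intervals from 13 arrays include 0; without that pair Akt1 changes side and Gsk3b is at 0.13.

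The 95% intervals give, gene by gene, the differences compatible with the scatter among these arrays. They do not give the size of difference that the adjusted threshold over 15633 probe sets could have missed. Over the 7 members the upper ends lay between 5.45% and 18.9% above the control level, and the lower ends between -9.34% and -0.12%, without any allowance for the number of intervals.

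Whether the balance of paralogs or subunits differed between diets was asked from differences within each array, in which a shift shared by all genes of an array cancels. The difference of log2 Akt2 minus log2 Akt1 was -0.74 ± 0.10 in fructose arrays (SD, n = 6) and -0.80 ± 0.09 in control arrays (SD, n = 7), a shift of 0.07 (exact 2-sided permutation p = 0.244 over 1716 splits, adjusted over 3 such tests to 0.704). Fructose replicate 4 was the lowest of its group, at -0.94 with the others from -0.75 to -0.66. Without it the shift was 0.107 (exact permutation p = 0.0265, adjusted p = 0.0795). Control replicate 8 was lower still, at -0.97, and without that array instead the shift was 0.039 (exact permutation p = 0.442, adjusted p = 0.768). Log2 Gsk3b minus log2 Gsk3a was 0.55 ± 0.09 in fructose arrays (SD, n = 6) and 0.53 ± 0.06 in control arrays (SD, n = 7), a shift of 0.02 (exact permutation p = 0.704) that was -0.014 without fructose replicate 4. Log2 Pik3r1 minus log2 Pik3cb, chosen after the values were seen in place of 2 differences that need Pik3ca, was 1.03 ± 0.11 in fructose arrays (SD, n = 6) and 1.00 ± 0.09 in control arrays (SD, n = 7), with an exact permutation p = 0.502. None of the 3 passed.

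Co-variation was measured between the 21 pairs of members over the 13 arrays, as deviations from the mean of each diet group. Akt1 and Akt2 had the highest correlation, with Pearson r = 0.66 and Spearman rho = 0.63 (permutation p = 0.00978 and 0.0201 from 100000 resamples within groups). After adjustment over the 21 pairs the permutation p was 0.205, so this pair did not pass, and 0 pairs did. The value was as large within each group, with r = 0.80 in fructose arrays (exact permutation p = 0.0694, n = 6) and r = 0.67 in control arrays (exact permutation p = 0.104, n = 7). It was 0.63 without the 2 arrays farthest from the median of Akt1 and 0.68 without control replicates 1 and 2, and without control replicate 8 it was 0.750, where the adjusted permutation p = 0.0470. After renewed quantile normalization, cyclic loess and centring of the arrays on their medians it was 0.55, 0.59 and 0.62. The adjusted permutation p was then 0.622, 0.502 and 0.441. Of all 122187528 pairs of probe sets, 3.99% had an r at least as high as that of Akt1 and Akt2.

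**Figure D3:**
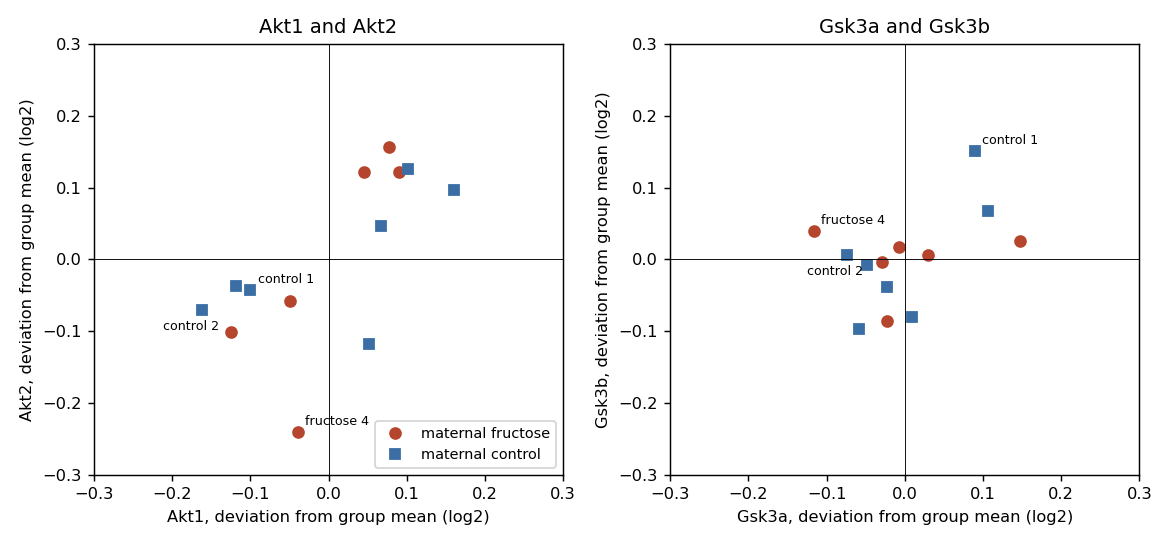
Deviation of each array from its group mean for the 2 pairs of paralogs, in log2 units, with maternal fructose as circles and maternal control as squares. Akt1 and Akt2 lie along a diagonal (r = 0.66), with fructose 4 low in Akt2 alone, while control 1 and control 5 are high in both Gsk3a and Gsk3b (r = 0.45).

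The other pairs were looser. Gsk3a and Gsk3b had r = 0.45 (rho = 0.38, permutation p = 0.117), with 0.71 in control arrays and 0.07 in fructose arrays. Akt2 and Gsk3a had r = 0.52 (rho = 0.45, permutation p = 0.0952), and 0.58 without control replicates 1 and 2. Mtor had r = 0.53 with Pik3cb (rho = 0.58, permutation p = 0.0679) and r = 0.52 with Akt1 (rho = 0.47, permutation p = 0.133). Control replicates 1 and 2 were the lowest 2 control arrays in Pik3cb and Mtor and 2 of the lowest 3 in Akt1, and without them these values were 0.21 and 0.14. Within groups, Mtor with Akt1 had r = 0.78 in control arrays and -0.61 in fructose arrays, and Mtor with Pik3cb 0.72 and 0.14. Gsk3b had a negative r with Akt1, Mtor, Pik3cb and Akt2, from -0.34 to -0.17, and from -0.09 to 0.28 without that pair of arrays. Each of these had an adjusted permutation p of at least 0.5198. In all, 15 of 21 pairs had a positive r, with a median of 0.18, beside 51.3% of all pairs of probe sets and a median of 0.014. The median was 0.06 without control replicates 1 and 2, and -0.046, -0.032 and -0.039 after renewed quantile normalization, cyclic loess and centring of the arrays on their medians. It was -0.027 without control replicate 5, with 10 of 21 pairs positive. Its sign therefore depended on how the arrays were scaled and on that array.

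**Figure D4:**
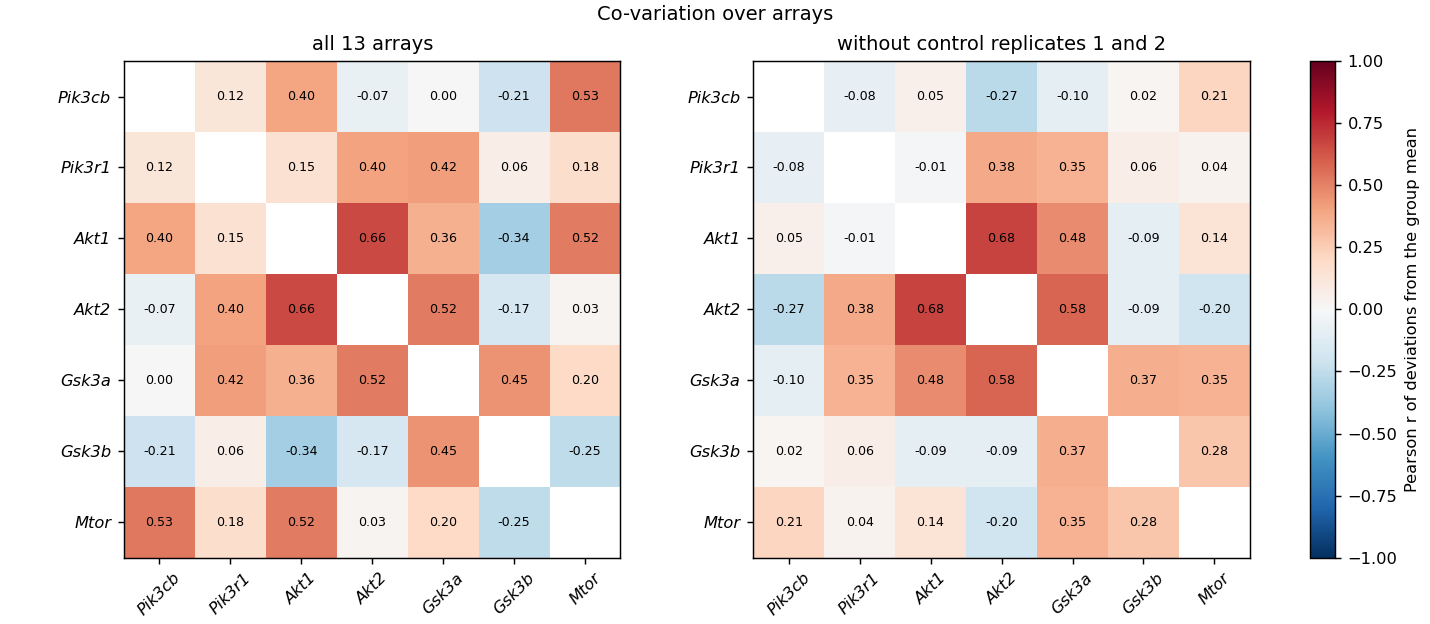
Pearson r between the 7 genes over deviations from the group mean, from all 13 arrays at left and from the 11 arrays without control replicates 1 and 2 at right. Akt1 with Akt2 is the highest in both (0.66 and 0.68), whereas the values of Mtor with Pik3cb and with Akt1 drop to 0.21 and 0.14 at right.

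The members were also set against the makeup of the sample and the spread of the array. Of 70 relations of the 7 members with 9 marker lists and with the interquartile range of the array, 0 passed an adjusted permutation p of 0.05. The strongest was Mtor with the mean of the 7 astrocyte markers (of which 4 had a higher mean in the fructose group), at r = 0.87 and rho = 0.89 (permutation p = 0.00157, adjusted over the 70 to 0.110), r = 0.84 without the 2 arrays farthest from the median and 0.72 without control replicates 1 and 2. Mtor also had r = 0.82 and rho = 0.73 with the interquartile range (permutation p = 0.00663, adjusted p = 0.232). The 2 extreme arrays of that range were control replicates 1 and 2. Without them r was 0.57 with the group means taken anew, and 0.65 with the deviations from all 13 arrays kept. Akt2 had r = -0.70 and rho = -0.53 with the mean of the 6 cerebellum markers (permutation p = 0.0136, adjusted p = 0.239), of which 3 had a higher mean in the fructose group. It was -0.81 without control replicates 1 and 2, and -0.48 without fructose replicate 4 and control replicate 7, the arrays farthest from the median. With the mean of the 5 endothelial markers, of which 4 had a higher mean in the fructose group, Akt1 had r = 0.63 and rho = 0.69 (permutation p = 0.0132, adjusted p = 0.239) and Akt2 r = 0.62 and rho = 0.65 (permutation p = 0.0562, adjusted p = 0.328). That mean spanned 8.58 to 8.92 in fructose arrays and 8.55 to 8.81 in control arrays. Pik3cb had r = 0.62 with the interquartile range (permutation p = 0.0231, adjusted p = 0.323) and 0.59 with the astrocyte mean (permutation p = 0.0323, adjusted p = 0.328). Without control replicates 1 and 2 these were 0.33 and 0.31. Gsk3a had r = 0.63 and rho = 0.60 with the mean of the 8 neuron markers (permutation p = 0.0345, adjusted p = 0.328), of which 7 had a higher mean in the fructose group. Gsk3b had r = -0.14 with the interquartile range over 13 arrays and 0.76 over 11. Their part in the diet differences was not tested.

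The genes whose pattern was most like each member over the 13 arrays were taken from 14505 other genes, by Pearson r of the deviations. These are the highest of very many values: the best match of a gene had a median r of 0.928 over all genes, with quartiles of 0.8999 and 0.9487. Gsk3a was most like Pdpk1 (r = 0.94), which encodes the kinase PDK1 that phosphorylates Akt, followed by Gask1b (0.93) and Aven (0.93), an inhibitor of cell death. Gsk3b was most like Rheb (r = 0.89), the small GTPase that activates mTOR complex 1, followed by Mob4 (0.87) and the pseudogene Hmgb1-ps33 (0.87). Without control replicates 1 and 2 the r of Gsk3b with Rheb was 0.78, at rank 196, and that of Gsk3a with Pdpk1 was 0.93, at rank 10, with Aven first at 0.97.

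Akt1 was most like Pygb (r = 0.93), the brain form of glycogen phosphorylase, Map1lc3b (0.90), of autophagosome membranes, and Chi3l1 (0.89), a secreted glycoprotein of reactive astrocytes. Akt2 was most like Hbs1l (0.94), of ribosome rescue, Mgll (0.93), the lipase that degrades the endocannabinoid 2-arachidonoylglycerol, and the splicing kinase Srpk2 (0.93). Mtor was most like Psenen (0.96), a gamma-secretase subunit, Ankrd13a (0.96) and the arginine methyltransferase Prmt1 (0.95). Pik3cb was most like Stxbp4 (0.92), Crot (0.90), a peroxisomal carnitine acyltransferase, and Yipf1 (0.90). Pik3r1 had the loosest best matches, Npy (0.83), the feeding peptide neuropeptide Y, the olfactory receptor gene Or4p22d (0.83) and Tm7sf2 (0.83), a sterol reductase gene, and its best r and that of Gsk3b lay below the lower quartile over all genes. Without control replicates 1 and 2, these first matches moved to rank 4 (Pygb), 7 (Hbs1l), 11 (Psenen), 10 (Stxbp4) and 6 (Npy). Chi3l1 was then at rank 56 for Akt1, and Mgll was first for Akt2.

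Around these kinases, 68 other genes of the pathway were listed by role, of which 56 were measured, with 0 past the adjusted threshold in either direction. Of the 56, 40 had a higher mean in the fructose group and the median difference was 0.02 on the log2 scale, beside 54.1% and 0.006 for all probe sets. Among the 4358 probe sets with a mean level of 9 to 12 these were 66.8% and 0.02, though some of the 56 genes lie outside that range. The counts by role below are to be read beside the same shares. Without control replicates 1 and 2, 26 of the 56 were higher with a median of -0.008, beside 51.4% and 0.002 for all probe sets. The remaining 12 listed genes were not analysed here.

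Of 8 other PI3K subunits, 5 had a higher mean in the fructose group. Pik3c3, which encodes the class III kinase Vps34 of endosomes and autophagy, had a difference of 0.10 ± 0.05 on the log2 scale and Pik3r3, of the regulatory subunit p55 gamma, 0.10 ± 0.06 (unadjusted p = 0.0786 and 0.112 from limma). They were 0.042 and 0.083 without control replicates 1 and 2. Pdpk1 differed by 0.003. Of 8 phosphatases that oppose the pathway, 5 had a higher mean. Both probe sets of Ppp2ca, a catalytic subunit of protein phosphatase 2A, hold the same values on every array and are not separate measurements. Ppp2ca was at 0.06 and Phlpp1, which dephosphorylates Akt, at 0.04. After renewed quantile normalization these were 0.027 and 0.021, and Phlpp1 lay between 0.021 and 0.072 with any 1 array left out, lowest without control replicate 1 and highest without control replicate 3.

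Of 5 subunits that join mTOR in its complexes, all 5 had a higher mean by 0.002 to 0.035, and 1 of 5 did without control replicates 1 and 2. Among them Rptor, the scaffold of mTOR complex 1, differed by 0.002, and Mapkap1 and Prr5, of mTOR complex 2, by 0.02 and 0.03. Upstream of mTOR complex 1, Tsc1 and Tsc2, which form the complex that switches off Rheb, differed by 0.07 and 0.04 and Rheb by 0.02. Without control replicates 1 and 2 these were 0.015 and 0.022 for Tsc1 and Tsc2 and 0.074 for Rheb. Tsc1 was 0.040 without control replicate 1 alone, and Tsc2 was 0.018 without fructose replicate 2, 0.024 without control replicate 2 and 0.015 after renewed quantile normalization. Rhebl1, a relative of Rheb, had means of 6.42 in fructose arrays and 6.55 in control arrays, below the median of every array. Its difference of -0.13 ± 0.10 was -0.084 without control replicate 1 and -0.190 without control replicate 7. Castor2, of a family that senses arginine for mTOR complex 1, was at 10.02 ± 0.12 in fructose arrays (SD, n = 6) and 9.88 ± 0.06 in control arrays (SD, n = 7), a difference of 0.13 ± 0.05 on the log2 scale (unadjusted p = 0.0226, adjusted p = 0.9998 from limma). Its fructose values spanned 9.83 to 10.13 and overlapped the control values of 9.82 to 9.97.

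Of 22 genes downstream, 15 had a higher mean in the fructose group. Eif4ebp2, the main brain form of the translation repressors that mTOR complex 1 phosphorylates, was at 8.96 ± 0.05 in fructose arrays (SD, n = 6) and 8.81 ± 0.13 in control arrays (SD, n = 7). The difference of 0.15 ± 0.06 on the log2 scale, or 11.2% (unadjusted p = 0.0193, adjusted p = 0.9998 from limma), was 0.079 without control replicates 1 and 2, whose values of 8.62 and 8.63 were the lowest of all. Mapt, which encodes tau, a substrate of GSK3, differed by 0.07 ± 0.04 (unadjusted p = 0.128 from limma), and by 0.040 without control replicates 1 and 2. Castor2 and Eif4ebp2 were the 2 of the 56 with an unadjusted p under 0.05 from limma, beside 2.23% of all probe sets. Without control replicates 1 and 2 there were 0, and the share of all probe sets was not taken there.

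**Figure D5:**
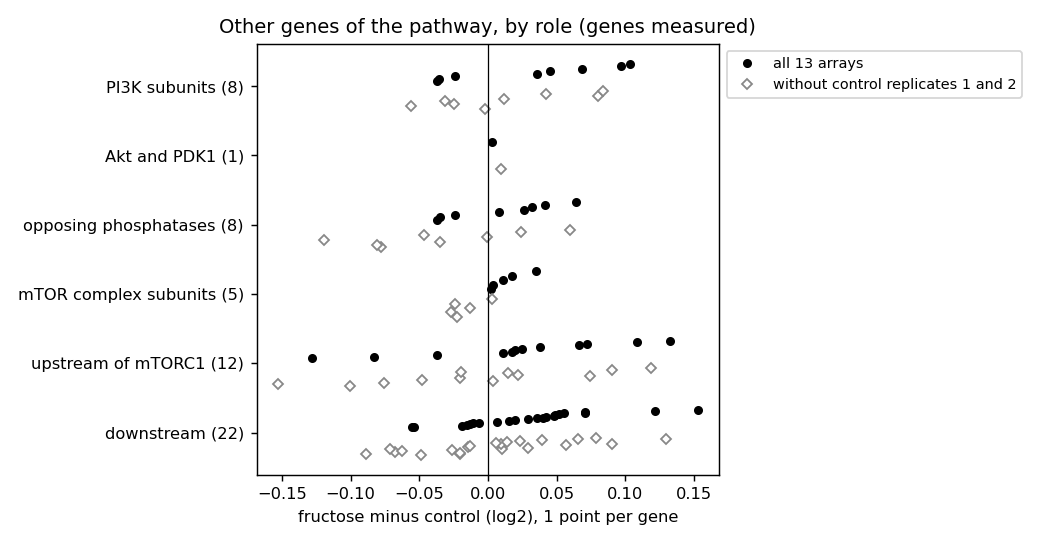
Difference between the maternal diets in log2 signal (fructose minus control) for the 56 other pathway genes, 1 point per gene in rows by role, from all 13 arrays (black circles) and without control replicates 1 and 2 (open diamonds). The points lie between -0.13 and 0.15 with all arrays, and 40 of them are above 0, against 26 without that pair.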

How the data were processed

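Brain RNA in 13 samples was labelled from 100 ng each and hybridised to 1-colour Affymetrix arrays. The authors deposited log2 signals per probe set, made with RMA in R 3.0.1 per the submitters' processing notes; RMA corrects background, equalises distributions and summarises probes. The array's annotation build is not given in the sources used here. Precision is limited by the number of arrays. The labels name no litter and do not say that samples are separate animals, so the p-values reflect only the scatter among these 13 samples, which may be technical.

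The 15633 probe sets with a gene (15310 with 1 symbol, 323 with several) were fitted with limma 3.58.1 in R 4.3.3, fructose minus control, with no filter on dim probe sets and Benjamini-Hochberg adjustment. Correlations used Python 3.11.15, 1 probe set per gene (highest mean) and permutations within diet groups. The code was tested on simulated data. The Entrez identifiers of all 7 members kept their symbols in the RefSeq gene table.

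Members and gene lists were chosen with earlier results of these data known. The text names all members, 8 set pathway genes where measured, up to 2 genes per role with the smallest unadjusted p, and the 3 genes most like each member. Alternatives were other normalizations, array weights, a trend prior, a dim filter, the replicate block and arrays left out.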

Additional observations from a re-analysis of the deposited data

Results flagged for a closer look

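In 50 groups of arrays (the named members and pathway genes and the within-array differences, each diet apart), 5 held a value far from the rest by Dixon's criterion at the 5% level, which chance gives in about 1 of 20 groups. Gsk3b in fructose replicate 8 was 11.21, with the other fructose arrays from 11.29 to 11.33. Akt2 minus Akt1 in fructose replicate 4 was -0.94, with the others from -0.75 to -0.66. Phlpp1 in fructose replicate 1 was 10.59, with the others from 10.48 to 10.51. Rptor in control replicate 2 was 8.45, with the others from 8.58 to 8.68, and Prr5 in control replicate 1 was 8.43, with the others from 8.60 to 8.73. The last 2 values belong to the arrays with the narrow distributions.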

How the results depend on the processing

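No probe set passed the adjusted threshold in limma under any alternative run, members and pathway genes included, with 348 at an unadjusted p under 0.05 in the reported fit. The smallest adjusted p of a member over all of them was 0.953. Without control replicates 1 and 2 the difference turned to -0.0136 for Akt1, -0.0224 for Rptor and -0.0239 for Mapkap1, and 26 pathway genes were positive. With renewed quantile normalization it turned to -0.0240 for Pdpk1, -0.0046 for Rptor and -0.0031 for Mapkap1, with cyclic loess to -0.0200 for Pdpk1 and -0.0086 for Rptor, and with array weights to -0.0029 for Rptor. With 1 array left out at a time, the difference ran from -0.0209 to 0.0229 for Pdpk1, from -0.0224 to 0.0226 for Rptor, from -0.0031 to 0.0407 for Mapkap1, from -0.0014 to 0.0532 for Prr5 and from -0.0098 to 0.0692 for Rheb. The shift of Gsk3b minus Gsk3a ran from -0.0139 to 0.0416, and 0 to 1 pairs of members passed as correlated. The cause of these turns was not tested. Akt2, Gsk3a, Gsk3b, Pik3r1 and Pik3cb kept a positive and Mtor a negative difference in each fit, with Mtor from -0.081 to -0.0081. With the replicate block, over the 6 shared replicate numbers, 0 probe sets passed and the block changed no call. Gsk3b then differed by 0.106 and Akt2 minus Akt1 by 0.0636. Samples of the same number had an r from -0.335 to 0.187, and none was highest with its own number. That r was not of the log2 signals themselves, for which the arrays correlated from 0.985 to 0.998. The numbers were therefore not taken as pairs. The differences that need Pik3ca were not run. Without detection p-values no distance from background can be given.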
